A study of Mus musculus with 10 samples.

Results

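The Ifi200 genes, also called the Pyhin genes, encode interferon-inducible proteins built from an N-terminal pyrin domain, a C-terminal HIN domain that binds DNA, or both. In mice they lie side by side on chromosome 1 as an array that differs between species in its number of genes. Aim2, the best known member, senses DNA in the cytosol and joins the adaptor Pycard to activate caspase-1. Other members act in the nucleus or modulate that response, and several are known to rise in leukocytes exposed to interferon. Here 8 of these genes were followed, Ifi202b, Ifi203, Ifi204, Mndal, Aim2, Pyhin1, Pydc3 and Pydc4, out of 46959 gene entries in the count table. They were chosen because of their levels across the same groups that are described below, so their levels and fold changes are given as a description and carry no p-value.

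The study measured total RNA in 10 mouse libraries that fall into 5 groups of 2. Femoral B cells from mice of 8 to 10 weeks were lysed directly after recovery and came from 3 groups, named 2KO, deltaEmu and RAG2_deficient. The label 2KO is not spelled out, and the design text speaks of mice lacking both 5'Eµ and the 3'RR, regulatory elements of the immunoglobulin heavy chain locus. The deltaEmu group is named for a deletion of Eµ, and the RAG2_deficient group lacks the recombinase gene Rag2, without which B cells do not pass the progenitor stage. All 3 femoral groups carry C57BL6 as their labelled strain, and wild-type femoral cells were not analysed here. Splenic cells depleted of CD43+ cells, from wild-type animals of the same age with 129 as the labelled strain, were cultured for 2 days with 5 µg/ml LPS and 20 ng/ml IL4, either with the histone deacetylase inhibitor SAHA (LPS_IL4_SAHA) or without it (LPS_IL4). The labels do not settle the strain and dose in full, because the growth protocol names KOKI and BLACK-6 mice, the design text leaves out IL4, and SAHA is given as 200 nM in sample names but in ng/ml elsewhere. The design text describes the RNAs as pools of animals, and nothing more says how far the 2 libraries of a group are independent, so that p-values measure the spread between these libraries only.

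Library totals ran from 17710154 to 25544275 counts, and columns were assigned by the sequencing index that ends each sample description. The numbers in the sample titles match that index for 2 columns and differ for 8, and titles and descriptions place SAHA on opposite spleen samples. Rag1, expressed in progenitor B cells, had 145.6 to 978.6 counts per 1000000 (CPM) in the 6 femoral libraries and 0 to 0.0394 CPM in the 4 spleen libraries, as the index assignment requires for tissue. That check does not bear on which spleen libraries received SAHA, and the SAHA comparison rests on the descriptions. Rag2 transcript remained at 22.8 to 25.4 CPM in RAG2_deficient libraries, with 13.7 to 20.9 CPM in 2KO and 13.9 to 21.2 CPM in deltaEmu, and the deleted part of that gene is not given in the sources used here. The femoral libraries were not purely B lineage: the summed level of 10 neutrophil markers was 9546 to 11528 CPM in 2KO, 18731 to 22009 CPM in deltaEmu, 7369 to 8279 CPM in RAG2_deficient and at most 0.434 CPM in spleen. Summed erythroid markers were 10905 to 16069 CPM in 2KO, 2512 to 2718 CPM in deltaEmu and 3339 to 6027 CPM in RAG2_deficient. Cd79a, which encodes a signalling subunit of the B cell receptor, ranged from 36.0 to 174.7 CPM in femoral libraries and from 198.0 to 300.8 CPM in spleen. Ms4a1, which encodes CD20, a surface protein of mature B cells, had 0.276 to 0.297 CPM in 2KO, 16.95 to 23.8 CPM in deltaEmu and 0.413 to 1.12 CPM in RAG2_deficient. Genes were called by edgeR's quasi-likelihood test at an adjusted p under 0.05. Of 10 mature B cell markers 4 were called for 2KO over deltaEmu, all lower in 2KO, against 3.7% of all tested genes. For deltaEmu over RAG2_deficient 6 were called, all higher in deltaEmu, against 9.81% of all tested genes. For 2KO over RAG2_deficient 1 was higher and 1 lower, against 4.31%. The part of mature B cells in the deltaEmu values below was not tested. In bulk samples of this kind, fewer cells of a type and less RNA per cell cannot be told apart.

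In the deposited mm10 gene models the 8 genes were ordered along the chromosome as Aim2 (chr1:173350879-173466040, plus strand), Pydc4 (chr1:173566284-173599274, minus), Pyhin1 (chr1:173630917-173647928, plus), Pydc3 (chr1:173673675-173698392, plus), Ifi204 (chr1:173747293-173766943, minus), Mndal (chr1:173857220-173942491, minus), Ifi203 (chr1:173920407-173942672, minus) and Ifi202b (chr1:173962568-173982744, minus). RefSeq names Pyhin1 as Ifi209, Pydc3 as Ifi208 and Pydc4 as Ifi213. A RefSeq table of promoters on GRCm38.p6, from 250 bases before to 50 after the gene start, held 9 promoters of 7 of the 8 genes, and Ifi204 had no entry. The Ifi202b promoter (chr1:173982795-173983094, minus strand) is printed first because this gene gave the sharpest on/off pattern. The capitals mark its only match to the core of the STAT-binding GAS element, TTCNNNGAA, at position -148 from the start.

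Ifi202b: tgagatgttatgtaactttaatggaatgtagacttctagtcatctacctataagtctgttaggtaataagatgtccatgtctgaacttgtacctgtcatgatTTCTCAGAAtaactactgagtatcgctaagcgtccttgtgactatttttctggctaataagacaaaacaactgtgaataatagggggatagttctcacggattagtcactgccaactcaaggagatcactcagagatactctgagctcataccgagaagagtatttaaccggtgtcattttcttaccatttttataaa

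Searched on both strands, the GAS core was present in 8.3% of 32851 promoters of that length, and of the 7 matched members it was found in 1. The core of the interferon-stimulated response element (ISRE), GAAANNGAAA, was in 3.44% of all promoters and in the promoters of 4 members. The 4 windows below show it in capitals with 20 bases on either side, 5′ to 3′ on the strand of the gene, because they fall into 2 identical pairs. The windows lie at chr1:173942498-173942547 for Ifi203, chr1:173880194-173880243 for Mndal, chr1:173673587-173673636 for Pydc3 and chr1:173599316-173599365 for Pydc4, and the motif begins at positions -35, -36, -58 and -73 from the starts in that order. The RefSeq start of Mndal lies inside the deposited gene model, which begins beside the start of Ifi203, and another RefSeq promoter of Mndal held a further match on the opposite strand. The RefSeq promoter of Aim2 (chr1:173420354-173420653, plus strand), which held neither core, also lies inside the deposited gene model of Aim2.
Ifi203: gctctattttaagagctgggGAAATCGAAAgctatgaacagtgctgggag
Mndal: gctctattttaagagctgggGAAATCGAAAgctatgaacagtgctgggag
Pydc3: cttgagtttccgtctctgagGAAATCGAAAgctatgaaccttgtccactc
Pydc4: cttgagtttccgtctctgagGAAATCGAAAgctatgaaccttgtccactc

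The Ifi203 and Mndal windows were the same in 50 of 50 bases, as were the Pydc3 and Pydc4 windows, and 29 of 50 bases were shared between the pairs. All 4 carried the letters GAAATCGAAA, which occurred on either strand in 16 of the 32851 promoters, or 0.0487%. Of those 16 promoters, 7 lay within the span of the cluster, which holds 14 promoters in the table: besides the 4 printed they belonged to Ifi206, Ifi207 and Ifi214. The other 9 included the promoter of Ddx58, which encodes the cytosolic RNA sensor RIG-I. A match is a description of these letters and says nothing on which factor is bound.

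A gene was counted as on in a group when both libraries had at least 1 CPM, as off when neither library had more than 3 counts, and as intermediate otherwise. By this scheme Ifi203, Mndal, Aim2 and Pyhin1 were on in all 5 groups, and Ifi202b was on in deltaEmu and off in the other 4. Ifi204 was on in the 3 femoral groups and intermediate in both spleen groups, Pydc3 was intermediate in RAG2_deficient and on elsewhere, and Pydc4 was intermediate in deltaEmu and on elsewhere. Among 15233 genes that were on somewhere, 13.2% were on in at least 1 group and off in at least 1 other, and 12.8% were on in all femoral groups and in neither spleen group. A pattern of on in deltaEmu and off in the other 4 groups occurred in 1 gene of 15233 (0.00656%), which was Ifi202b itself. Since the genes were chosen on these levels, nothing is read from these shares.

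**Figure D1:**
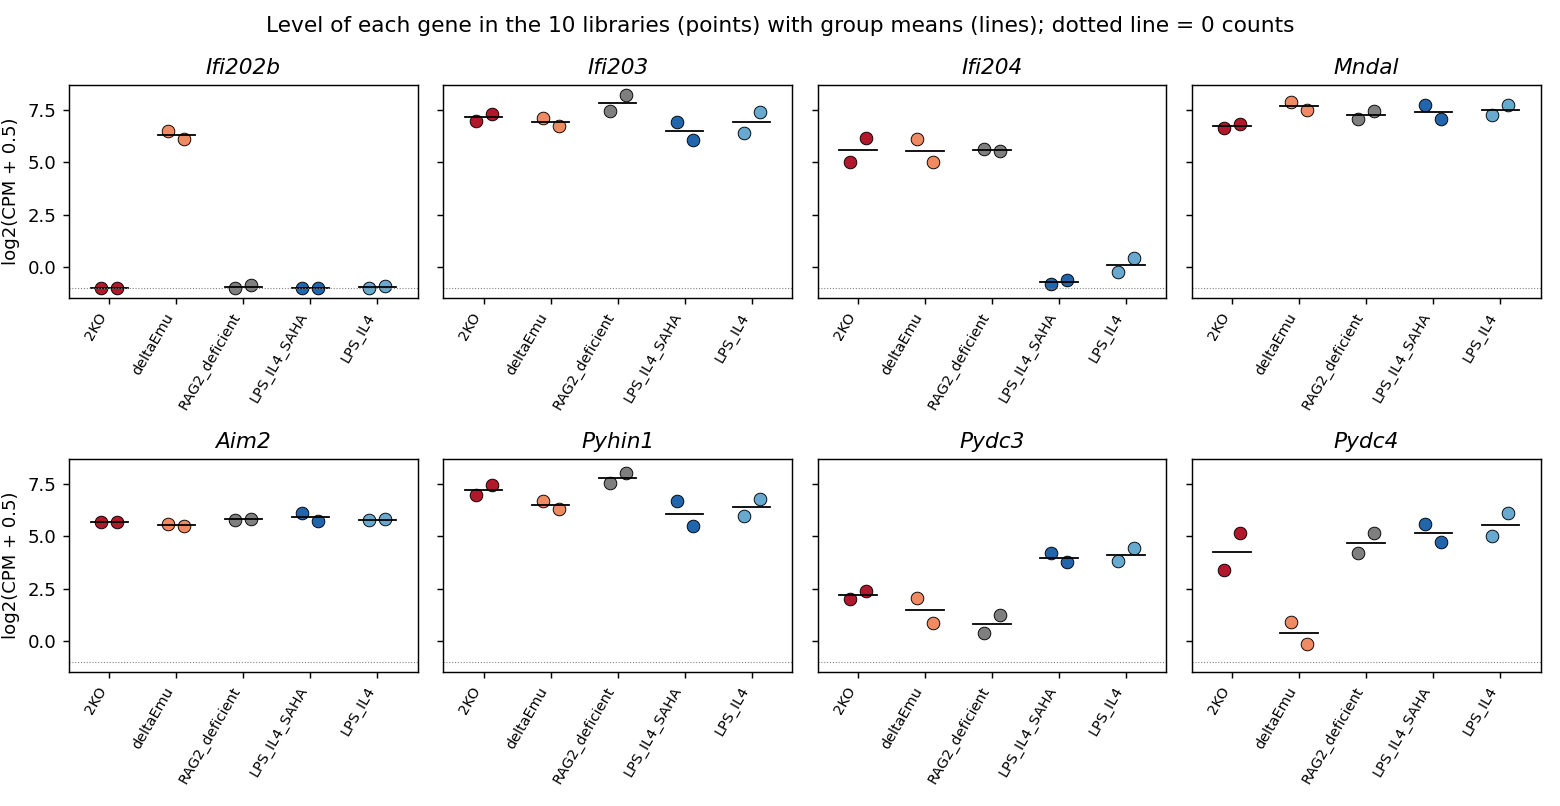
Level of each of the 8 genes in the 10 libraries, on a log2(CPM + 0.5) axis, with 1 panel per gene. Points are libraries, lines are means of the log2 values of the 2 libraries of a group, and the dotted line is the position of 0 counts; for Ifi202b the deltaEmu libraries stand far above that line while the other 8 libraries hold at most 1 count, and Ifi204 stands high in the femoral groups alone.

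Ifi202b encodes a protein with HIN domains and no pyrin domain that is known to oppose Aim2, and its level is known as background to vary widely among inbred mouse strains. It had 91.1 and 69.4 CPM in the deltaEmu libraries, from 1823 and 1170 counts. It had no count in either 2KO library and 0 and 1 count in the RAG2_deficient libraries. The spleen libraries held no count of it under LPS_IL4_SAHA and 0 and 1 count under LPS_IL4. Both deltaEmu libraries therefore stood far above the other 8 libraries, which did not differ from one another beyond a single count. Set against a floor of 3 counts per library, the 2KO level was at least 560.7-fold lower than that of deltaEmu. The ratio of deltaEmu to RAG2_deficient was 2880, with a 95% interval from 516.5 to 113800 that covers counting error only. The strain of these animals was not checked in the reads, and its part in the level was not tested.

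Pydc4, named for its pyrin domain, was the gene with the opposite pattern. It had 9.80 and 35.3 CPM in 2KO, 1.35 and 0.415 CPM in deltaEmu, and 18.03 and 34.97 CPM in RAG2_deficient. In spleen it had 47.0 and 26.1 CPM under LPS_IL4_SAHA and 31.5 and 68.1 CPM under LPS_IL4. The deltaEmu libraries were the lowest of all 10, and the other 4 groups overlapped with their neighbours in the order of levels. Fitted on the log2 scale, Pydc4 was 4.63 ± 0.77 higher in 2KO than in deltaEmu (SE, n = 2 each), or 24.7-fold. In deltaEmu against RAG2_deficient the fitted difference was -4.86 ± 0.77 (SE, n = 2 each), or 29.0-fold lower. Without deltaEmu replicate 5 the difference of deltaEmu against RAG2_deficient was -5.97. That of 2KO over deltaEmu was lowest, at 3.43, when 2KO replicate 3 was left out, and highest, at 5.74, when deltaEmu replicate 5 was.

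Ifi204 encodes p204, a mouse protein known from work on DNA sensing and on cell differentiation. It had 31.5 and 70.1 CPM in 2KO, 67.9 and 32.2 CPM in deltaEmu, and 48.8 and 46.4 CPM in RAG2_deficient. These 3 groups overlapped, and the fitted log2 differences among them were between 0.02 and 0.09, each with an SE of 0.42. On leaving out a library the difference of Ifi204 for 2KO over deltaEmu ran from -0.67 to 0.66. In spleen it had 0.0788 and 0.166 CPM under LPS_IL4_SAHA, from 2 and 4 counts, and 0.359 and 0.850 CPM under LPS_IL4, from 7 and 22 counts. Every spleen library was below every femoral library, and Ifi204 did not pass the low-count filter in the spleen. Markers of many cell types moved the same way. Those of monocytes and macrophages summed to 3921 to 8570 CPM over femoral libraries and to 96.5 to 114 CPM over spleen libraries. In the same order erythroid markers summed to 2512 to 16069 and 1.85 to 5.03 CPM, and stromal markers to 1205 to 8281 and 0.154 to 0.236 CPM. Neutrophil, pro-B cell, NK cell, plasmacytoid dendritic cell and T cell markers were also lower in spleen, and mature B cell markers were higher there. The part of these cell types in the result was not tested. Tissue, culture, agents and labelled strain all differ between femoral and spleen groups and cannot be told apart, and the levels of the 2 tissues were normalised separately.

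Pydc3, also named for its pyrin domain, was higher in spleen. It had 17.6 and 13.1 CPM under LPS_IL4_SAHA and 13.5 and 20.9 CPM under LPS_IL4. In femoral cells it had 3.46 and 4.64 CPM in 2KO, 3.70 and 1.31 CPM in deltaEmu and 0.808 and 1.86 CPM in RAG2_deficient. The 4 spleen libraries lay above the 6 femoral ones, and 2KO lay above RAG2_deficient while deltaEmu overlapped with both. The fitted log2 difference of 2KO over RAG2_deficient was 1.58 ± 0.57 (SE, n = 2 each), or 2.99-fold. It was 0.68 ± 0.53 for 2KO over deltaEmu and 0.90 ± 0.58 for deltaEmu over RAG2_deficient, both with overlapping libraries. Single libraries weighed on these values: 2KO over RAG2_deficient was 2.32 without RAG2_deficient replicate 3 and 1.13 without RAG2_deficient replicate 2. Without deltaEmu replicate 5, 2KO over deltaEmu was 1.63 and deltaEmu over RAG2_deficient was -0.04, and without deltaEmu replicate 7 they were 0.13 and 1.46.

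The 4 genes that were on everywhere varied far less. Aim2, the DNA sensor of the inflammasome that bears its name, was the steadiest. It had 51.2 and 50.7 CPM in 2KO, 48.1 and 44.3 CPM in deltaEmu, 54.3 and 56.6 CPM in RAG2_deficient, 68.1 and 53.0 CPM under LPS_IL4_SAHA and 54.9 and 55.1 CPM under LPS_IL4. All 10 values lay between 44.3 and 68.1 CPM, and the fitted log2 differences of Aim2 in the 3 femoral comparisons were 0.14 ± 0.14, -0.12 ± 0.14 and -0.26 ± 0.14 for 2KO over deltaEmu, 2KO over RAG2_deficient and deltaEmu over RAG2_deficient.

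Mndal, a relative of the myeloid cell nuclear differentiation antigen, had 99.8 and 113.9 CPM in 2KO, 231.4 and 181.3 CPM in deltaEmu, and 133.9 and 175.6 CPM in RAG2_deficient. In spleen it had 212.7 and 133.2 CPM under LPS_IL4_SAHA and 152.0 and 210.5 CPM under LPS_IL4. The 2KO libraries were the lowest of the 10 and did not overlap with any other group, whereas the remaining neighbours in the order overlapped. The fitted log2 difference was -0.95 ± 0.22 for 2KO over deltaEmu, or 1.93-fold lower, and -0.54 ± 0.21 for 2KO over RAG2_deficient. It was 0.41 ± 0.21 for deltaEmu over RAG2_deficient.

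Ifi203, an interferon-inducible member of the array, had 125.1 and 159.1 CPM in 2KO, 137.0 and 104.6 CPM in deltaEmu and 173.9 and 300.4 CPM in RAG2_deficient. In spleen it had 121.3 and 66.0 CPM under LPS_IL4_SAHA and 84.2 and 168.7 CPM under LPS_IL4. RAG2_deficient was the highest group and did not overlap with the other femoral groups, and the other 4 groups overlapped in order. The log2 difference of Ifi203 was -0.97 ± 0.29 for deltaEmu over RAG2_deficient, -0.74 ± 0.29 for 2KO over RAG2_deficient and 0.23 ± 0.29 for 2KO over deltaEmu.

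Pyhin1, which carries the name of the family, had 125.6 and 174.0 CPM in 2KO, 101.6 and 79.2 CPM in deltaEmu, and 182.3 and 261.6 CPM in RAG2_deficient. In spleen it had 102.8 and 43.7 CPM under LPS_IL4_SAHA and 62.6 and 108.6 CPM under LPS_IL4. The 3 femoral groups did not overlap, with RAG2_deficient highest and deltaEmu lowest. The log2 difference of Pyhin1 was -1.30 ± 0.26 for deltaEmu over RAG2_deficient, or 2.46-fold lower, -0.57 ± 0.26 for 2KO over RAG2_deficient and 0.73 ± 0.26 for 2KO over deltaEmu.

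Compared per kilobase of the gene model, the order of the genes within a group also changed. In 2KO and RAG2_deficient Pyhin1 led, with 42.2 ± 9.64 and 62.6 ± 15.8 CPM per kilobase (SD, n = 2), followed by Mndal with 31.0 ± 2.89 and 45.0 ± 8.56. In deltaEmu Mndal led with 59.9 ± 10.3 CPM per kilobase, Ifi202b came next with 47.3 ± 9.06 and Pyhin1 followed with 25.5 ± 4.46. In spleen Mndal led, at 50.2 ± 16.3 CPM per kilobase under LPS_IL4_SAHA and 52.7 ± 12.01 under LPS_IL4. Aim2 stayed between 13.2 and 17.3 CPM per kilobase as a group mean in all 5 groups, and Pydc3 did not exceed 3.27.

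With a size of at least 2-fold and no overlap between libraries as the measure, 2 of 8 genes differed between 2KO and deltaEmu, Pydc4 higher and Ifi202b lower, where 10.5% of 16538 tested genes did, 5.21% higher and 5.28% lower. Pydc3 alone differed between 2KO and RAG2_deficient, in that case higher, against 12.1% of genes, of which 4.11% were higher and 8.02% lower. Between deltaEmu and RAG2_deficient 3 of 8 differed, Ifi202b higher and Pydc4 and Pyhin1 lower, against 17.4% of genes, 7.13% higher and 10.3% lower. The 3 femoral comparisons share libraries, and the choice of the genes used these contrasts, so nothing is read from the counts.

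**Figure D2:**
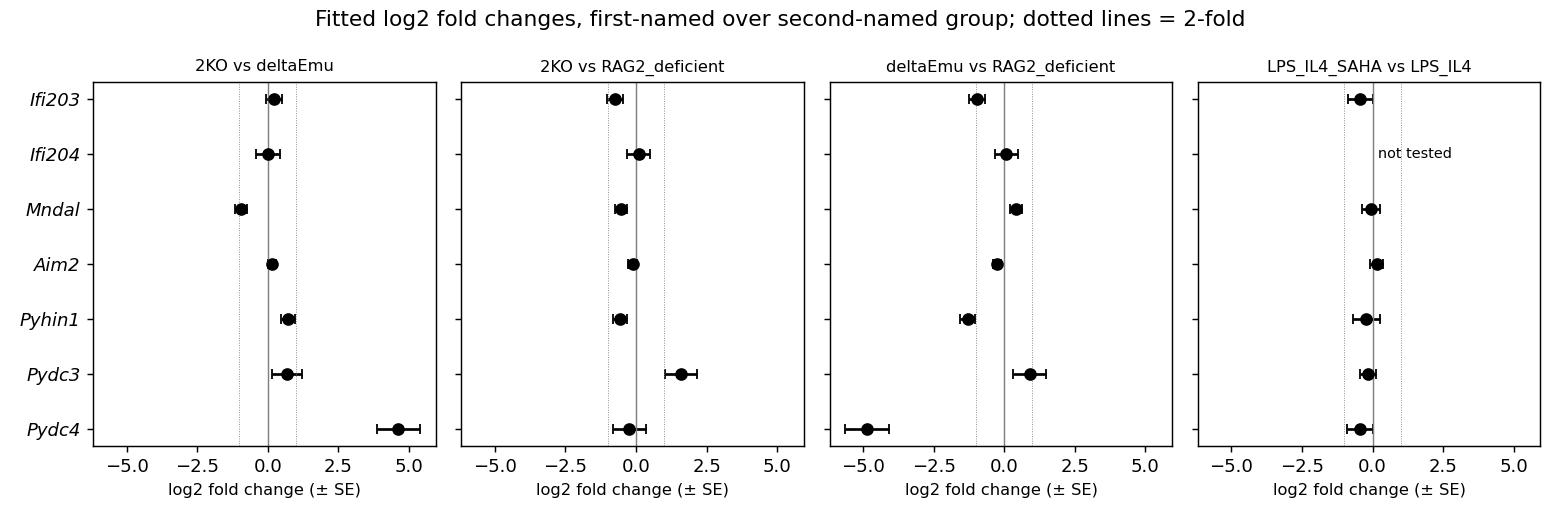
Fitted log2 fold changes with standard errors for 7 of the 8 genes in the 3 femoral comparisons and for 6 in the SAHA comparison, where Ifi204 was not tested, the first-named group over the second-named group; Ifi202b is left out because at least 1 side of each comparison had almost no counts. Pydc4 lies beyond 4 on the log2 axis in both comparisons with deltaEmu, in opposite directions, while Aim2 stays near 0 in all 4 panels.

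SAHA addresses whether inhibiting histone deacetylases changes these genes in activated splenic B cells. Of the 6 members that passed the low-count filter in spleen, 0 differed by at least 2-fold without overlap, against 2.22% of 13913 genes. Ifi204, which did not pass that filter, was lower under LPS_IL4_SAHA without overlap, at 0.0788 and 0.166 against 0.359 and 0.850 CPM. Those levels rest on 6 counts in total under LPS_IL4_SAHA and 29 under LPS_IL4. The log2 differences of LPS_IL4_SAHA over LPS_IL4 were -0.43 ± 0.44 for Ifi203, -0.45 ± 0.45 for Pydc4, -0.23 ± 0.47 for Pyhin1, -0.17 ± 0.30 for Pydc3, -0.07 ± 0.32 for Mndal and 0.14 ± 0.22 for Aim2 (SE, n = 2 each), all with overlapping libraries. Within LPS_IL4_SAHA the 4_et_7 pool had the higher value of each of these 6 genes, and within LPS_IL4 the 6_et_8 pool did. For 5 of them, all but Aim2, the pools of each group differed by more than the group means did. For all genes, edgeR's quasi-likelihood test called 0 of 13913 (0%) at an adjusted p under 0.05, with 187 at an unadjusted p under 0.05, and DESeq2 also called 0. The 0 calls of edgeR did not hold when either LPS_IL4 library was left out, above all without 4_et_7. Such a fit leaves 1 LPS_IL4 library, and the cause of the shift was not tested.

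The span of the cluster held 11 further gene entries, which are not among the chosen members. The locus itself, however, was chosen on the levels of its members in these same libraries. Some of these entries also share sequence with members, as given below, so nothing is read from the number called. In femoral cells 6 of them passed the low-count filter, and in spleen 4 did. Between 2KO and deltaEmu 2 of the 6 were called by edgeR's quasi-likelihood test at an adjusted p under 0.05, both lower in 2KO, where 3.7% of 16538 genes were called in either direction and 1.91% were lower. The first was Gm38050, annotated as a pseudogene in GENCODE vM21 (chr1:173849149-173850780, minus strand), with 0.0247 ± 0.0350 CPM in 2KO and 6.89 ± 2.67 CPM in deltaEmu (SD, n = 2 each; ratio 0.00354, 95% counting interval 8.93e-05 to 0.0199, adjusted p = 0.00157). The second was BC094916 (chr1:173519717-173535957, minus strand), which vM21 lists as Ifi214, with 5.97 ± 2.08 CPM in the 2KO and 19.4 ± 0.88 CPM in the deltaEmu libraries (log2 difference -1.70 ± 0.32, adjusted p = 0.0302). BC094916 was lower in 2KO than in RAG2_deficient as well, where it had 20.0 ± 7.21 CPM (log2 difference -1.74 ± 0.32, adjusted p = 0.0297), and it was the 1 of 6 called there, against 4.31% of all genes in either direction and 3.05% lower.

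Between deltaEmu and RAG2_deficient 2 of the 6 were called, against 9.81% of all genes, 4.42% higher and 5.39% lower. Gm38050 had 6.89 ± 2.67 CPM in deltaEmu and 0.0880 ± 0.0515 CPM in RAG2_deficient (ratio 79.5, 95% counting interval 26.9 to 388.3, edgeR adjusted p = 0.0017). Gm4955, which RefSeq names Ifi206, had 1.79 ± 0.86 CPM in deltaEmu and 18.6 ± 8.87 CPM in RAG2_deficient (log2 difference -3.35 ± 0.62, edgeR adjusted p = 0.0166). Gm38050 thus shared the direction of Ifi202b in both comparisons with deltaEmu, and Gm4955 that of Pydc4 in the comparison with RAG2_deficient. For 2KO over deltaEmu Gm4955 had a log2 difference of 2.63 ± 0.62 and was not called by edgeR (adjusted p = 0.067), whereas it was called by DESeq2 (adjusted p = 0.000138) and, by edgeR, without the low-count filter (adjusted p = 3.84e-16), without 2KO replicate 1 (0.0121) and without either RAG2_deficient library (0.0245 and 0.0253). Leaving out either deltaEmu library ended the Gm4955 call, with adjusted p-values of 0.108 and 0.137, and the BC094916 calls were each lost without deltaEmu replicate 5, deltaEmu replicate 7 or 2KO replicate 1, and the one against RAG2_deficient also without 2KO replicate 3, with adjusted p-values of 0.138 to 0.211 against deltaEmu and 0.0504 to 0.116 against RAG2_deficient. Both Gm38050 calls held under every alternative run.

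AI607873, which RefSeq names Ifi207, had 54.9 ± 20.8 CPM in 2KO, 27.8 ± 8.63 CPM in deltaEmu and 51.3 ± 8.26 CPM in RAG2_deficient, and edgeR's adjusted p was 0.162 for 2KO over deltaEmu, 0.91 for 2KO over RAG2_deficient and 0.119 for deltaEmu over RAG2_deficient. Without the low-count filter AI607873 was called by edgeR for 2KO over deltaEmu (adjusted p = 0.000185) and for deltaEmu over RAG2_deficient (adjusted p = 0.00088), the second also without RAG2_deficient replicate 2 (0.0493). Like Ifi204 it was low in spleen, with 0.318 ± 0.274 CPM under LPS_IL4_SAHA and 1.18 ± 0.794 CPM under LPS_IL4. Mnda, which RefSeq names Ifi211, had 31.4 ± 9.41, 21.0 ± 9.13 and 32.3 ± 8.25 CPM in 2KO, deltaEmu and RAG2_deficient, and Gm16340, named Ifi203-ps in RefSeq, averaged at most 1.85 CPM in any group. Gm16340 was called for deltaEmu over RAG2_deficient under 1 of the alternatives run, without RAG2_deficient replicate 2 (edgeR adjusted p = 0.0226). None of the 4 tested in spleen was called under SAHA by edgeR with all libraries, and without the LPS_IL4 4_et_7 library Gm4955 (adjusted p = 0.00394) and AI607873 (adjusted p = 0.021) were called, both lower under SAHA.

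**Figure D3:**
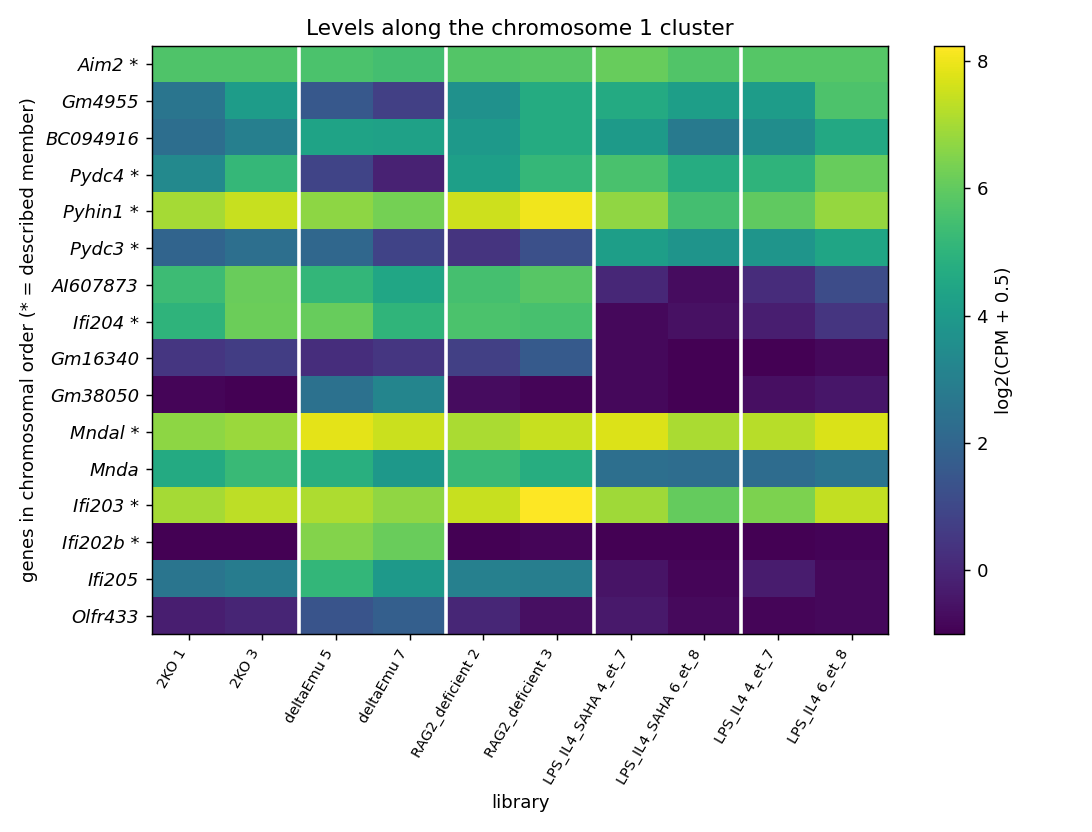
Levels in log2(CPM + 0.5) of genes in and just beyond the cluster that reached 1 CPM in some library, in chromosomal order down the page, with asterisks on the 8 described genes and white lines between groups of 2 libraries. Ifi202b is bright in deltaEmu alone. Gm38050 is dark outside deltaEmu and reaches a lower-middle shade in deltaEmu, at 4.999 and 8.777 CPM. Pydc4 and Gm4955 are dark in deltaEmu, and Ifi204 and AI607873 are dark in the 4 spleen libraries.

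Within 1 Mb on either side of the cluster lay 62 further gene entries, and those named here were picked because they passed the edgeR test. Over all tested genes 3.7% were called for 2KO over deltaEmu, 4.31% for 2KO over RAG2_deficient and 9.81% for deltaEmu over RAG2_deficient. Nothing is read from the number of flanking genes named. Ifi205, the neighbouring Ifi200 gene (chr1:174011998-174031810, minus strand), had 6.24 ± 0.988 CPM in 2KO and 24.5 ± 13.5 CPM in deltaEmu (SD, n = 2 each; log2 difference -1.97 ± 0.37, edgeR adjusted p = 0.0297). It was also higher in deltaEmu than in RAG2_deficient, where it had 7.35 ± 0.252 CPM (log2 difference 1.74 ± 0.37, edgeR adjusted p = 0.0262). Olfr433, an olfactory receptor gene next to it, was low throughout but followed the same direction, with 0.403 ± 0.0800 CPM in 2KO, 2.56 ± 0.577 CPM in deltaEmu and 0.326 ± 0.242 CPM in RAG2_deficient (edgeR adjusted p = 0.0367 for 2KO over deltaEmu and 0.0167 for deltaEmu over RAG2_deficient). The entry Gm37125 was likewise highest in deltaEmu, at 17.6 ± 4.43 CPM, against 5.71 ± 0.669 CPM in 2KO and 5.02 ± 2.22 CPM in RAG2_deficient (edgeR adjusted p = 0.0421 and 0.0168 for the same comparisons). Without deltaEmu replicate 5 none of these 6 calls on Ifi205, Olfr433 and Gm37125 remained, and the omissions that ended a call gave adjusted p-values of 0.0623 to 0.376.

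Other flanking genes that were called had other patterns. Ackr1, which encodes an atypical chemokine receptor known from red cells, had 5.97 ± 1.51 CPM in 2KO and 1.23 ± 0.235 CPM in deltaEmu (SD, n = 2 each; log2 difference 2.26 ± 0.34, edgeR adjusted p = 0.0125). The erythroid markers given above were higher in 2KO as well, and their part in this call was not tested. The call was lost without 2KO replicate 3 or either deltaEmu library (adjusted p from 0.0959 to 0.179). Fcer1a, a subunit of the IgE receptor of mast cells and basophils, was higher in 2KO than in RAG2_deficient, with 27.9 ± 6.00 and 10.4 ± 2.01 CPM (edgeR adjusted p = 0.0201, and 0.0640 to 0.0848 without 2KO replicate 1 or either deltaEmu library). The potassium channel gene Kcnj10 and the Fc receptor-like gene Fcrl6 were higher in RAG2_deficient than in both other groups, with edgeR adjusted p-values between 0.00512 and 0.0449. Markers of other cell types were highest in RAG2_deficient as well. The 8 stromal markers summed to 1205 to 1708 CPM in 2KO, 2264 to 2426 CPM in deltaEmu and 7228 to 8281 CPM in RAG2_deficient, 10 pro-B cell markers to 921.4 to 1332 CPM, 1061 to 1376 CPM and 2982 to 3221 CPM in the same order, and 8 NK cell markers to 63.6 to 83.3 CPM, 64.1 to 99.6 CPM and 129.6 to 148.3 CPM. No marker of these 3 lists was at 0 in any femoral library, and their part in the Kcnj10 and Fcrl6 calls was not tested. The 4 calls on Kcnj10 and Fcrl6 were lost without either deltaEmu library, both Fcrl6 calls also without RAG2_deficient replicate 3, and both calls of 2KO over RAG2_deficient also without RAG2_deficient replicate 3 or 2KO replicate 3, and that on Kcnj10 without 2KO replicate 1, with adjusted p-values of 0.0552 to 0.377 where a call was lost.

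Reads could be divided between similar genes, and how the counting treated reads with several matches is not given in the sources used here. Of the 50-base stretches of the GENCODE vM21 transcripts of Ifi202b, 0% occurred in transcripts of another gene, and for Aim2 the share was 0.63%. It was 12.2% for Ifi203, 15.6% for Pydc4, 19.6% for Mndal, 20.0% for Ifi204, 20.8% for Pydc3 and 33.8% for Pyhin1, whose main partner was Ifi214. Pydc3 and Pydc4 were each other's main partners. Gm38050 shared 36.5% of its stretches, all with Mndal, and Gm4955 shared 25.6%. Mnda shared the most, 72.8%, mainly with Ifi205, and the share was 18.6% for Ifi205, 14.6% for BC094916 and 7.29% for AI607873. The values of all these genes other than Ifi202b and Aim2 are uncertain, to an extent that these shares do not give. That extent also depends on the level of the partner genes and on how reads were counted. The exons of Ifi203 and Mndal overlapped by 37 bases on the same strand, and no other exon overlap between a member and a gene entry was found.

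The genes nearest in pattern to each member were found as the smallest root mean square (RMS) difference of log2(CPM + 0.5), centred per gene over the 10 libraries, among 11842 genes. For Ifi202b these were the heat shock genes Hspa1b and Hspa1a on chromosome 17 and Gm38050, with RMS differences of 0.917, 1.24 and 1.499. Hspa1b had 4.96 to 13.4 CPM in 2KO, 292.2 to 317.8 CPM in deltaEmu, 1.70 to 2.74 CPM in RAG2_deficient, 1.498 to 2.15 CPM under LPS_IL4_SAHA and 1.23 to 1.47 CPM under LPS_IL4. Unlike Ifi202b, Hspa1b was thus detected in every group, and the deltaEmu libraries stood apart in it too. For Pydc4 the nearest were Gm4955, Gvin1 and Trim5, at 0.621, 0.643 and 0.653. Gvin1, a large interferon-induced GTPase gene on chromosome 7, had 7.57 to 15.1 CPM in 2KO, 0.119 to 0.2 CPM in deltaEmu and 16.0 to 24.2 CPM in RAG2_deficient. Trim5, a restriction factor gene also on chromosome 7, had 6.43 to 10.2 CPM in 2KO, 0.09999 to 0.1186 CPM in deltaEmu and 21.5 to 23.9 CPM in RAG2_deficient.

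**Figure D4:**
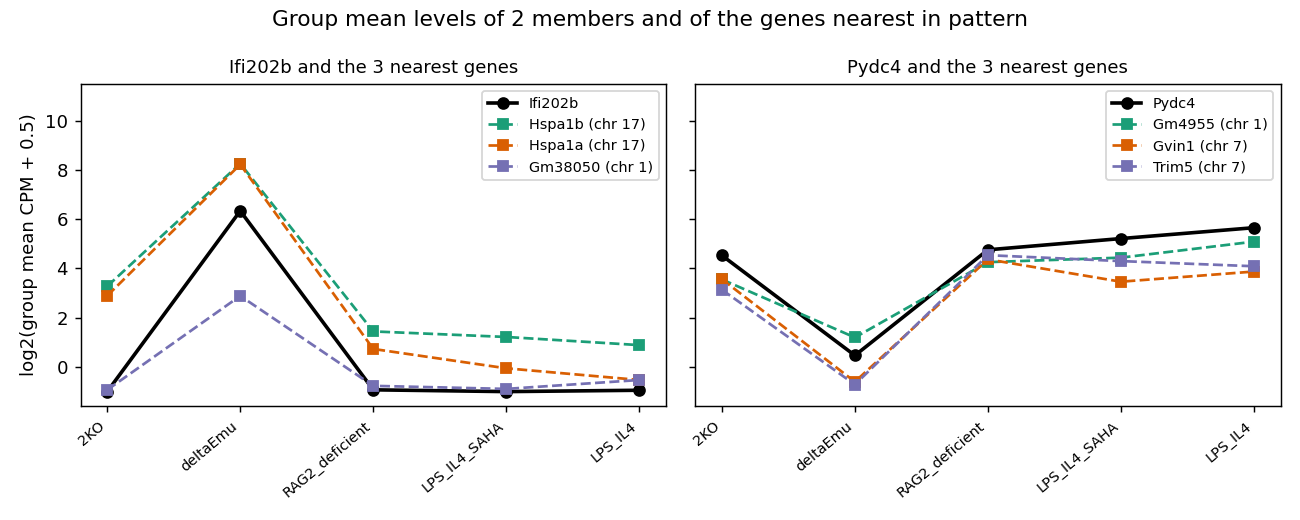
Group mean levels, as log2(mean CPM + 0.5), of Ifi202b and Pydc4 (black) and of the 3 genes nearest to each in pattern (colours, with their chromosomes), for the 5 groups. Ifi202b and its nearest genes peak in deltaEmu, where Pydc4 and its nearest genes have their minimum.

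The remaining members had closer neighbours in pattern. Those of Aim2 were Trdmt1, Sept2 and Ggps1, with RMS differences of at most 0.091. Those of Ifi203 included Mtcp1 and Fam208a, and those of Mndal were Samd9l, Nlrc4 and Filip1l, with RMS differences of at most 0.180 in both sets. Those of Pyhin1 were Gm21710, Arhgap5 and Spopl (at most 0.245), those of Ifi204 were Agap1, Frmd4a and Dock5 (at most 0.386), and those of Pydc3 were Hspd1-ps3, Gm15484 and Gm7289 (at most 0.447). Among the members themselves Ifi203 and Pyhin1 were most alike (0.256), followed by Mndal and Aim2 (0.387), while Ifi202b and Pydc4 were farthest apart (4.78).

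The wider interferon and DNA-sensing pathways were examined through 4 gene lists. Of 25 type I interferon response genes, such as Ifit1 and Mx1, edgeR called 0 in any of the 4 comparisons. At an unadjusted p under 0.05 there were 5 for 2KO over deltaEmu, 1 for 2KO over RAG2_deficient, 0 for deltaEmu over RAG2_deficient and 1 for SAHA, and DESeq2 called 1, 0, 0 and 0 in the same order. Without the low-count filter edgeR called 9 of these 25 for 2KO over deltaEmu (8 lower, 1 higher), 5 for 2KO over RAG2_deficient (4 lower, 1 higher), 5 for deltaEmu over RAG2_deficient (4 higher, 1 lower) and 1, lower, for SAHA. Over all genes the calls without that filter were 1537, 1971 and 3308 of 27469 in the femoral comparisons and 145 of 23217 for SAHA. Leaving out a library also changed the number of list genes called, most for SAHA without the LPS_IL4 4_et_7 library. Calls over all genes changed as well, and nothing is read from these counts. The median log2 difference of the list was -0.50 for 2KO over deltaEmu, against -0.01 over all tested genes, and it was -0.15, 0.24 and -0.32 in the other 3 comparisons. Of 12 interferon receptor and signalling genes edgeR called 0 in each comparison, with 3, 1, 3 and 0 at an unadjusted p under 0.05 and 0, 0, 1 and 0 by DESeq2. Their medians were -0.27, 0.01, 0.31 and 0.01. Of 13 tested genes of cytosolic DNA sensing edgeR also called 0, with 1, 0, 1 and 0 at an unadjusted p under 0.05 and 0 by DESeq2 in every comparison, and the medians were -0.15, 0.08, 0.13 and 0.05. Without the low-count filter both of these lists also had 0 calls. On leaving out a library both had some calls in femoral comparisons and for SAHA, where calls over all genes changed too. Medians over all tested genes were between -0.03 and 0.00 in these comparisons.

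The inflammasome partners, the genes with which Aim2 and other sensors act, were counted in the same way. Of 12 such genes 2 were called for 2KO over deltaEmu, both lower in 2KO (list median -0.32), against 3.7% of all genes. Without the low-count filter 4 were called there, all lower in 2KO, against 1537 of 27469 genes. The sensor gene Nlrp1b had 10.3 ± 0.304 CPM in 2KO and 38.4 ± 3.97 CPM in deltaEmu (SD, n = 2 each; log2 difference -1.90 ± 0.30, edgeR adjusted p = 0.0159). Nlrc4, a sensor with NAIP proteins of bacterial ligands, had 8.30 ± 0.366 CPM in 2KO and 16.9 ± 1.03 CPM in deltaEmu (-1.03 ± 0.19, edgeR adjusted p = 0.0269). Each of these 2 calls was lost on leaving out any of the 4 libraries compared, with adjusted p-values of 0.0745 to 0.274. For 2KO over RAG2_deficient 1 was called, Nlrp3, a sensor of cell damage, with 67.9 ± 0.631 and 28.4 ± 1.71 CPM (1.26 ± 0.15, edgeR adjusted p = 0.00534, or 0.0538 without 2KO replicate 3; list median -0.10), against 4.31% of all genes. For deltaEmu over RAG2_deficient 4 rose and 1 fell (list median 0.25), against 9.81% of all genes. Leaving out a library changed the number of inflammasome genes called in all 3 comparisons, and that over all genes as well.

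Among those that rose, Nlrp3 had 84.0 ± 3.11 CPM in deltaEmu and 28.4 ± 1.71 CPM in RAG2_deficient (1.57 ± 0.15, edgeR adjusted p = 0.00124). Nlrp1b had 38.4 ± 3.97 and 8.12 ± 3.91 CPM in the same groups (2.23 ± 0.31, edgeR adjusted p = 0.00529), and Il1b, the cytokine that caspase-1 cleaves, had 32.5 ± 8.90 and 6.14 ± 3.58 CPM (2.39 ± 0.39, edgeR adjusted p = 0.00976). Without deltaEmu replicate 5 the adjusted p was 0.0649 for Nlrp1b and 0.0976 for Il1b, and the Nlrp3 call held under every alternative run. In spleen 9 of the 12 were tested and edgeR called 0, with 0 at an unadjusted p under 0.05 and 0 by DESeq2. The summed neutrophil markers given above and the summed monocyte and macrophage markers, 5048 to 5536 CPM in 2KO, 7711 to 8570 CPM in deltaEmu and 3921 to 5524 CPM in RAG2_deficient, were also highest in deltaEmu, and their part in these calls was not tested. Aim2 itself, as given above, lay within 44.3 to 56.6 CPM over the same 6 femoral libraries.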

How the data were processed

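The authors deposited a single table of raw read counts per gene for all 10 libraries. The submitters' processing notes name STAR 2.4.0a, featureCounts, Subread 1.4.6-p1 and the build mm10 (GRCm38). The labels name a stranded total RNA kit. Which annotation was used, whether counting kept strand, and how multiply matching reads were handled are not given in the sources. The members, gene lists and tests were chosen with earlier results of these data known.

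The 100 control entries were removed. Levels are CPM on TMM effective library sizes, computed separately for the 6 femoral and the 4 spleen libraries. edgeR 4.0.16 (R 4.3.3) quasi-likelihood tests followed filterByExpr with a minimum count of 10, leaving 3 and 2 residual degrees of freedom, with Benjamini-Hochberg adjustment over all tested genes. Standard errors are the fold change divided by the square root of the F statistic. The scripts were tested on simulated data. DESeq2 1.42.0, other size factors, no filter, left-out libraries and a replicate block were tried as alternatives. Intervals and floors cover counting error only.

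The text names all 8 members, all entries of the cluster past the filter, flanking genes within 1 Mb that were called, the 3 called genes with the smallest adjusted p in each pathway list and comparison, and the 3 genes nearest in pattern to each member (pseudocount 0.5, mean of at least 5 CPM in some group, no immunoglobulin segments). A few genes that this rule names are not reported here. Spleen pools carry the numbers 4_et_7 and 6_et_8 in both conditions.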

Additional observations from a re-analysis of the deposited data

How the results depend on the processing

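With on set at 5 CPM, with plain library totals and with off set at 0.1 CPM, 1 member (Ifi202b) had an on/off pattern and 4 were on in all 5 groups, as before; the other classes were not recounted. Of 29 fitted fold changes of members, those past 2-fold kept their sign under all alternatives run, some small ones crossed 0 on leaving out a library, among them Ifi204 in 2KO over deltaEmu (-0.67 to 0.66, beyond its SE), and 7 of their alternative values moved by more than the spread. Of 24 calls on genes of the cluster, its flanks and the lists, 3 held under every alternative, namely both for Gm38050 and the one for Nlrp3 in deltaEmu over RAG2_deficient, and 21 were lost under at least 1, always on leaving out a library. Without the low-count filter the called genes numbered 1537 for 2KO over deltaEmu, 1971 for 2KO over RAG2_deficient, 3308 for deltaEmu over RAG2_deficient and 145 for SAHA. In the same order the pathway genes called were 13, 7, 10 and 1, and the cluster genes 4 in both comparisons with deltaEmu. Under SAHA 1 member, the low-count gene Ifi204, then passed the size measure, lower with SAHA. By DESeq2 the called genes numbered 949 and 1242 for 2KO over deltaEmu and over RAG2_deficient, and the pathway genes 5 and 2. The cause of these shifts was not tested.

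Leaving out 1 library gave 119 to 1587 called genes for 2KO over deltaEmu, 153 to 3222 for 2KO over RAG2_deficient, 259 to 5401 for deltaEmu over RAG2_deficient and 0 to 2670 for SAHA. In that order pathway genes ranged over 0 to 8, 0 to 5, 1 to 15 and 0 to 15, cluster genes over 1 to 3, 0 to 1, 1 to 4 and 0 to 2, and members past 2-fold over 2 to 3, 1 to 3, 3 to 4 and 0 to 1. Where a group keeps 1 library, that library is assumed to vary like the others. The third-group omissions were added after the data were seen.

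With pool number as a replicate block, edgeR called 0 genes under SAHA, as without it. Same-numbered pools deviated in opposite directions (r = -0.46 over 13913 genes, which are not independent), and with the pools crossed, an alternative added after the data were seen, 0 genes were called. With 2 libraries per group, tests detect large and even differences only.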
